A study of Mus musculus with 2 samples.

Results

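The Dlx-positive cells were 117 of the 15594 cell barcodes in 2 single-cell RNA libraries of mouse hippocampus, 67 of 8733 in the 60TM library and 50 of 6861 in the wild-type (WT) library. A barcode was chosen when it held a UMI (a unique molecular identifier, 1 counted RNA molecule) of at least 2 of the 4 genes Dlx1, Dlx2, Dlx5 and Dlx6os1 and of at least 2 of the 4 immature-neuron genes Dcx, Sox11, Cd24a and Igfbpl1. At most 2 of the 4 proliferation genes Mki67, Top2a, Cdk1 and Birc5 could be detected. The barcode also had to show 500 or more genes with a mitochondrial share no higher than 15%. The measured values of these 12 genes therefore chose the cells, and their levels below are a description. The cells had been labelled as interneuron-lineage neuroblasts. In 10 cells of 60TM and 7 of WT, mature-neuron genes and few or no Sox11 UMIs went against that label, so the cells are called Dlx-positive cells here.

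The 60TM library came from mice carrying the GFAP-hGFAP (60TM) transgene on the C57BL6/J background, a model of Alexander disease in which human GFAP adds to the astrocyte's own intermediate filament protein. The WT library came from C57BL6/J mice without it. In each genotype the hippocampi of 3 mice aged 7 weeks were pooled into 1 library after papain dissociation, with the 10x Chromium Single Cell 3' kit v3, and no label ties a barcode to a mouse. With 1 library for each genotype no test of genotype is possible: intervals below are exact 95% intervals that cover counting error alone, and library and genotype cannot be told apart.

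Over all genes the libraries held 80684152 UMIs (60TM) and 63532407 UMIs (WT), with medians of 7666 and 7481 UMIs for each barcode that passed the limits. Over those barcodes Gfap was at 385 counts per 1000000 UMIs (CPM) in the 60TM library and 66.7 CPM in the WT library, the direction that the labels give. In all, 20 barcode sequences occurred in both libraries, and 0 of them belonged to chosen cells. Barcodes with the highest doublet scores were marked, up to a number fixed by an expected rate. They included 6 chosen cells in 60TM and 1 in WT, and 0 of the immature Dlx-positive cells defined below.

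Dlx genes encode homeodomain transcription factors that act early in the GABAergic neurons of the ventral forebrain. Dlx1 and Dlx2 lie next to each other, as do Dlx5 and Dlx6, and Dlx6os1 is a long noncoding RNA read from the strand opposite Dlx6. In the adult rodent forebrain, Dlx-positive neuroblasts are known from the subventricular zone and its stream towards the olfactory bulb, while the hippocampus's own neurogenic niche in the dentate gyrus makes glutamatergic granule neurons that pass through a Neurod1- and Prox1-positive stage.

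On GRCm38, Dlx1 is at chr2:71528113-71533981 on the plus strand and Dlx2 at chr2:71543408-71546754 on the minus strand. Dlx5 is at chr6:6877805-6882085 on the minus strand. Dlx6os1, at chr6:6820189-6871592 on the minus strand, spans Dlx6 at chr6:6863334-6868568 on the plus strand, and the antisense gene Dlx1as spans Dlx1. The sources used here do not state whether counting used strand, so reads of overlapping partners may not be fully apart. The windows below run from 250 bases before to 50 after a start site, in RefSeq's GRCm38.p6 annotation, 5′ to 3′ on the gene's strand. They are shown for 3 of the genes that chose the cells and for Sp9, which separated them most from granule-lineage cells. Capitals mark TAATTA, the core letters that homeodomain factors are known to bind, which reads alike on both strands, or GGGCGG on either strand, the GC box of the Sp family. The windows are chr2:71529195-71529494 (Dlx1, plus strand), chr2:71546705-71547004 (Dlx2, minus strand), chr6:6869484-6869783 (Dlx6os1, minus strand, the first of its windows) and chr2:73271676-73271975 (Sp9, plus strand).
Dlx1: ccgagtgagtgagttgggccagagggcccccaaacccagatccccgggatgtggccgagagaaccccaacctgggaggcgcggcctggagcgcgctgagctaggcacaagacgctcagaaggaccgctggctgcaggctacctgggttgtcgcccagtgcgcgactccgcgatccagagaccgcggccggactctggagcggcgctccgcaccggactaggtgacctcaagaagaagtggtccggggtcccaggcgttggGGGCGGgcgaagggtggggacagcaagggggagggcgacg
Dlx2: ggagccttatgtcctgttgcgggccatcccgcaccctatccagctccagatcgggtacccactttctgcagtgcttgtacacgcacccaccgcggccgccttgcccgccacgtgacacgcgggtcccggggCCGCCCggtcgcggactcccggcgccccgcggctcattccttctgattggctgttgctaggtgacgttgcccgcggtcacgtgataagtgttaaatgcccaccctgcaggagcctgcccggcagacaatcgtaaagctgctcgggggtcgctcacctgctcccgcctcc
Dlx6os1: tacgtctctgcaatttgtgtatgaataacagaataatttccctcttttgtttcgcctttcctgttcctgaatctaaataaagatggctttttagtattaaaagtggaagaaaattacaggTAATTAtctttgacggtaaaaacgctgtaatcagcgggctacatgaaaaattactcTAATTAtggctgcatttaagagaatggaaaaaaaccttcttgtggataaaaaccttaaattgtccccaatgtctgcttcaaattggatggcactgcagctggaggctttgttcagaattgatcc
Sp9: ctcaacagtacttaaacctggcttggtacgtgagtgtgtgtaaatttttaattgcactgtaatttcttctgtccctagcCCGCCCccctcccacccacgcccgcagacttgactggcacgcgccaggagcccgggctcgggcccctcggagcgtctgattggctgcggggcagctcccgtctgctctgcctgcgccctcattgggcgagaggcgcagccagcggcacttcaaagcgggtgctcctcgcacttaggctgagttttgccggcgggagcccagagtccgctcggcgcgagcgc
The Dlx6os1 window held 2 TAATTA matches, while Dlx1, Dlx2 and Sp9 each held 1 GC box and 0 TAATTA. Of 32851 promoters of this length in the table, 5.29% held TAATTA and 35.7% held GGGCGG. The matches describe letters in these windows and no binding was measured.

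The chosen cells made up 0.825% (exact interval 0.640 to 1.05) of the 8125 barcodes within the limits in the 60TM library and 0.777% (0.577 to 1.02) of the 6435 in the WT library, so the intervals of the shares overlapped. They were not of 1 kind. A list of 14 genes of mature neurons, such as the synaptic vesicle genes Syt1 and Syp, the neurofilament genes and the noncoding RNA Snhg11, set some of them apart. In the 60TM library 10 cells, and in the WT library 7 cells, held 9 to 13 and 11 to 14 of these 14 genes. The remaining chosen cells held at most 7, and no chosen cell held 8. In the 60TM library 1 of the 10 cells lay on the limit of 9. A further 4 and 2 cells held at least 60% of a marker list of glia or vessels. The other 53 cells (60TM) and 41 cells (WT) are called immature Dlx-positive cells, 0.652% (0.489 to 0.852) and 0.637% (0.458 to 0.863) of the barcodes within the limits.

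The mature-gene cells went against the neuroblast label. Sox11, a transcription factor of newborn neurons, had 0 to 9 UMIs in the mature-gene cells of 60TM and 0 to 7 in those of WT, against 7 to 82 and 5 to 80 UMIs in the immature cells. Snhg11 is 1 of the 14 genes that made the split, so its difference was partly fixed by it. It had at most 2 UMIs in any immature cell. In the mature-gene cells it had 95 to 512 UMIs in 60TM and 56 to 267 in WT. These cells were also larger in RNA: they were 10 of 67 and 7 of 50 cells but held 34.2% and 50.04% of the UMIs of the chosen cells. They differed between the libraries in what they were. Gad1 and Gad2, which encode the enzymes that make GABA, summed to 49 to 520 UMIs in the 7 mature-gene cells of WT. In the 10 of 60TM they summed to 1 to 373, and 4 of the 10 cells had fewer than 15. Of the 60TM cells 6 also passed a glial or vascular marker list, against 1 of the 7 WT cells. Any sum over all chosen cells therefore mixes immature cells with a few RNA-rich mature ones whose makeup differed by library.

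**Figure D1:**
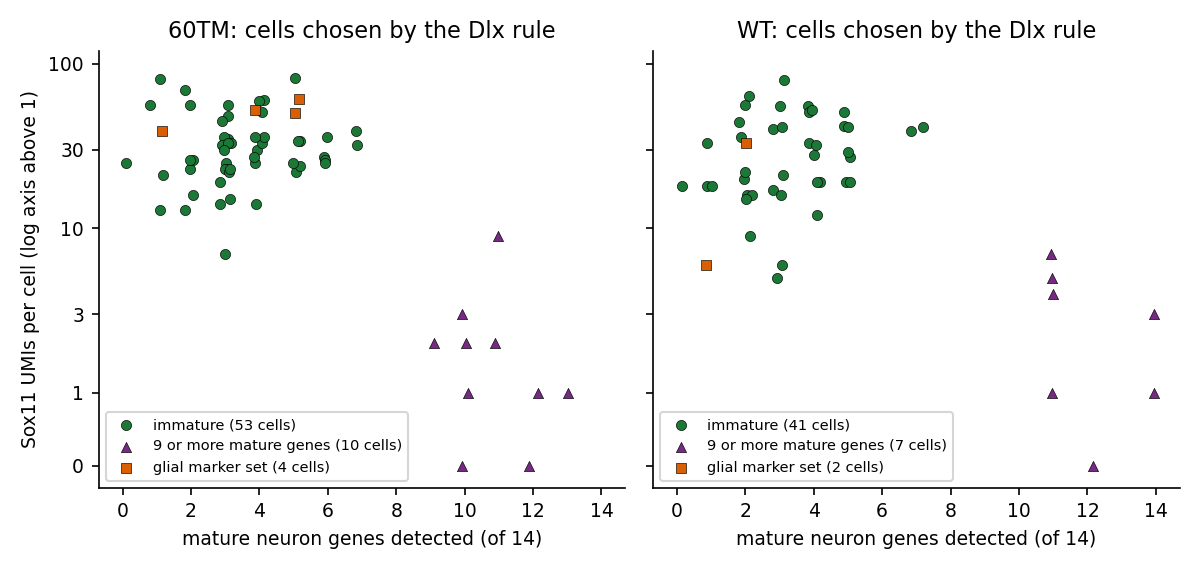
Each point is 1 chosen cell of the 60TM library (left) or the WT library (right), placed by how many of 14 mature neuron genes had a UMI (x axis) and by its Sox11 UMIs (y axis). Cells with 9 or more mature genes had at most 9 Sox11 UMIs, while the immature cells had at most 7 mature genes and 5 to 82 Sox11 UMIs.

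In the immature cells the genes of the rule were detected well past its minimum. All 4 Dlx genes had a UMI in 36 of 53 cells (60TM) and in 20 of 41 cells (WT), and all 4 immature-neuron genes in 52 and 40. Dlx1 had 0 to 23 UMIs in a 60TM cell with a median of 4, and 0 to 10 in a WT cell with a median of 3. Dlx2 had a median of 2 (0 to 15) in 60TM cells and 3 (0 to 9) in WT cells. Dlx5 had the fewest UMIs of the 4, with a median of 1 in both and highs of 12 and 8. Dlx6os1 had the most, with a median of 6 (0 to 20) in 60TM cells and 4 (0 to 19) in WT cells. The ranges of the libraries overlapped for each of the 4. Sox11 reached every immature cell, with medians of 30 and 28 UMIs, and Igfbpl1, which encodes a secreted protein of neural progenitors, had 4 to 23 UMIs in 60TM cells and 3 to 30 in WT cells. Proliferation genes of the rule had a UMI in 0 of 53 cells and 1 of 41.

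Just inside the limits, 4 chosen cells of 60TM and 10 of WT had exactly 2 Dlx genes. Just outside, 8 and 9 cells had 1 Dlx gene with at least 2 immature-neuron genes, with 15 and 18 Dlx UMIs and 71 and 50 Sox11 UMIs in all. A further 6 and 2 cells had at least 2 Dlx genes but 1 immature-neuron gene, and 0 Sox11 UMIs in either library. The limit on proliferation genes left out 7 and 8 cells with 3 or 4 of them that met the rest of the rule. These cycling cells summed to 166 and 160 Dlx UMIs and 467 and 710 Sox11 UMIs, with 0 Neurod1 UMIs in both libraries. The limits on genes and mitochondrial UMIs left out 0 cells that met the rest.

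To place the immature cells, they were set against the other immature neurons of these libraries. These granule-lineage cells had at least 2 of Neurod1, Neurod2, Prox1 and Bhlhe22, the same immature-neuron genes and fewer than 2 Dlx genes. They numbered 269 in 60TM and 296 in WT, and 196 and 247 once the same limits on mature genes and marker lists were applied. Since both kinds of cell were chosen by genes, the differences are a description. Among genes outside the rules with at least 50 UMIs over the 4 sums, 188 of 8463 (2.22%) were at least 2-fold higher in immature Dlx-positive cells in both libraries, and 809 (9.56%) were at least 2-fold lower. Over all chosen cells and all granule-lineage cells the counts were 317 of 11200 higher (2.83%) and 722 lower (6.45%).

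Factors of ventral forebrain identity led the higher genes. Sp9, a zinc finger factor of Dlx-positive progenitors, had 211 UMIs in the 60TM immature cells and 1 UMI in their granule-lineage counterparts, a ratio of 924 (164 to 36652) between CPM values. In WT it had 126 UMIs in the Dlx-positive cells against 0, at least 331-fold higher when the floor of 3 counts over the group stands for 0. Its relative Sp8 was 233-fold higher in 60TM (78.5 to 1144) and at least 315-fold higher in WT. Meis2, a homeodomain partner of Pax6 and Dlx factors, had 1032 UMIs against 15 in the 60TM library, a 301-fold difference (182 to 540), and 624 against 56 in the WT library, an 87.8-fold difference (66.7 to 118). By cell, Meis2 had a median of 19 UMIs (0 to 40) in 60TM and 16 (2 to 36) in WT, and a UMI in 52 of 53 and 41 of 41 immature cells. Meis2 had a UMI in 0 of the 10 and 0 of the 7 mature-gene cells.

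Of 16 ventral forebrain factors listed, 11 had enough UMIs, and 7 were at least 2-fold higher than in granule-lineage cells in both libraries, among them Etv1, Meis2, Pax6, Sp8, Sp9 and Tshz1. Etv1 was 19.9-fold (60TM) and 46.2-fold (WT) higher, and Pax6 5.58-fold and 8.53-fold. Sp8, Pax6, Etv1 and Tshz1 are known from neuroblasts bound for the olfactory bulb in the mouse. On the other side, Nr2f2, a factor of caudal ganglionic eminence interneurons, was 5.29-fold (60TM) and 3.98-fold (WT) lower, with a UMI in 1 of 53 and 3 of 41 immature Dlx-positive cells. Zic1 was also lower, with 2 and 1 UMIs in Dlx-positive cells against 129 and 86.

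Genes that mark the medial ganglionic eminence and other ventral lineages were at or near 0. Nkx2-1, Lhx6 and Lhx8, which act in medial eminence interneurons, had 0 UMIs in the immature cells of both libraries, as did Isl1 and Ebf1, which act in striatal projection neurons. Lhx6 had a UMI in 3 of 10 (60TM) and 4 of 7 (WT) mature-gene cells. Of 15 genes that mark mature interneuron subtypes, Pvalb, Reln, Calb2, Lamp5, Nos1, Th and Ndnf had 0 UMIs in both, and Sst had 1 UMI in each. Of other interneuron genes, Htr3a had 12 UMIs in 11 of 53 cells (60TM) and 7 in 7 of 41 (WT). Cnr1 had 7 and 3 UMIs. Adarb2, an RNA-binding protein gene known from caudal eminence interneurons, had 55 and 25 UMIs in 26 of 53 and 14 of 41 immature cells, and was 241-fold higher than in granule-lineage cells in 60TM and at least 65.7-fold higher in WT. Other factors on the medial eminence list were present: Sox6 had 26 and 28 UMIs and Satb1 42 and 43.

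The GABA synthesis genes were detected in most immature cells at low counts. Gad2 had a median of 2 UMIs in both libraries, with highs of 12 and 7, and was 182-fold higher (69.6 to 675) than in granule-lineage cells in 60TM and 898-fold (158 to 35795) in WT. Gad1 had 54 and 35 UMIs, and Slc32a1, which encodes the vesicular GABA transporter, had 28 and 14. Gad1 or Gad2 had a UMI in 47 of 53 and 38 of 41 immature cells.

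Excitatory and granule genes gave the opposite picture. Of 12 listed, 11 were measured and 10 were at least 2-fold lower in the immature Dlx-positive cells in both libraries, among them Emx1, Eomes, Tbr1, Neurod6 and Zbtb20. Neurod1, a gene of the granule-lineage rule, had 0 UMIs in the Dlx-positive cells against 2470 in the granule-lineage cells of 60TM, and 1 against 3127 in those of WT. Prox1, also in that rule and known from both granule neurons and some interneurons, was not absent. It had a UMI in 27 of 53 and 17 of 41 immature Dlx-positive cells, at 159 and 127 CPM against 924 and 921 CPM in granule-lineage cells. Calb2, which encodes calretinin and marks a brief stage of granule neurons as well as some olfactory bulb interneurons, had 0 UMIs in both libraries against 1397 (60TM) and 1971 (WT), at least 106-fold and 83.4-fold lower. The helix-loop-helix inhibitor genes split. Id2 was 35.8-fold and 31.1-fold lower in Dlx-positive cells, while Id4 was 34.5-fold and 46.0-fold higher.

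**Figure D2:**
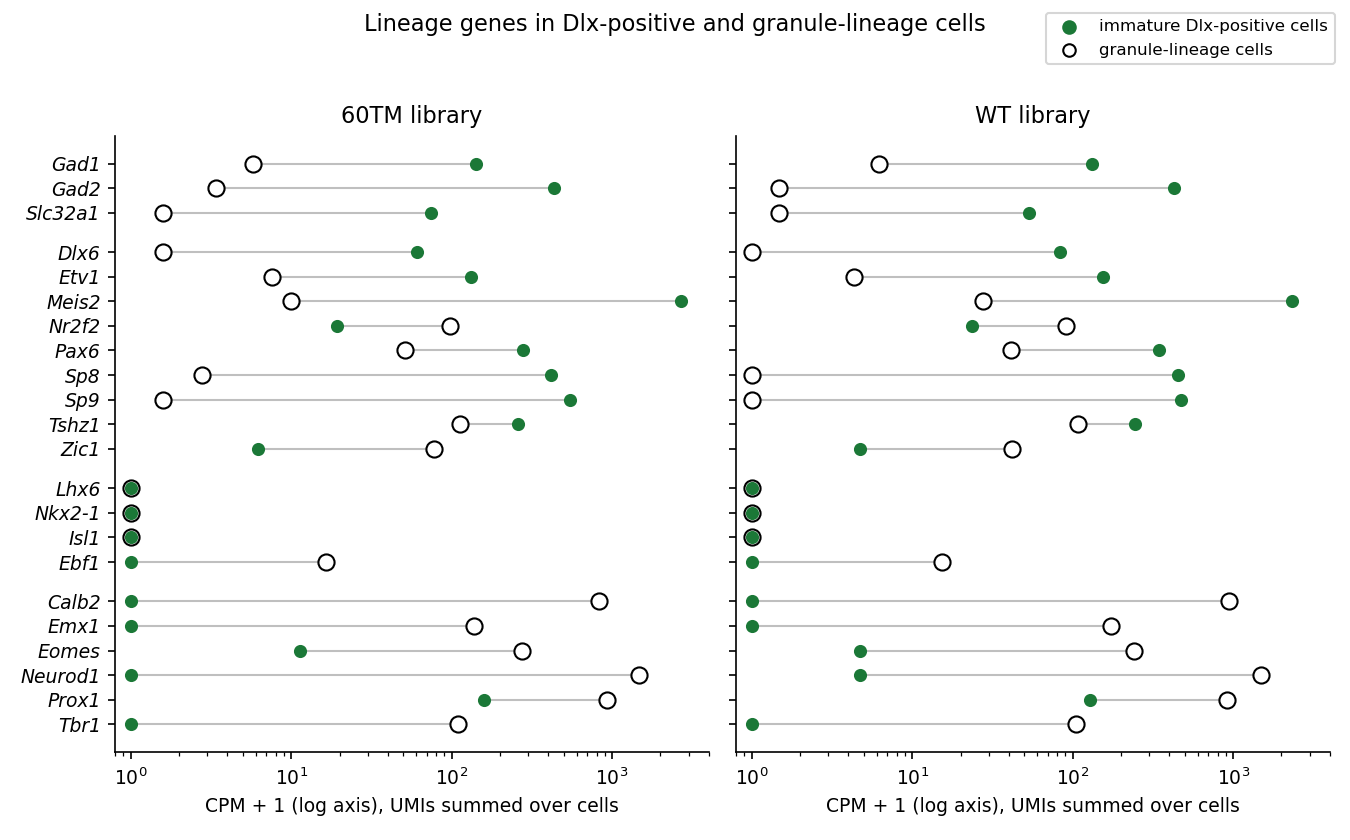
Summed level as CPM + 1, on a log axis, of lineage genes in immature Dlx-positive cells and in granule-lineage cells of the 60TM and WT libraries. Sp9, Sp8, Meis2 and Gad2 lay far higher in the Dlx-positive cells of both libraries, and Neurod1 and Calb2 far lower. Filled points are Dlx-positive cells and open circles granule-lineage cells.

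Genes of migration and guidance were divided between the kinds of cell. Of 18 listed, 13 were measured, 2 were at least 2-fold higher in both libraries and 6 at least 2-fold lower. Robo2, a receptor for Slit repellents, was 14.8-fold (10.3 to 21.6) and 16.5-fold (11.4 to 24.3) higher, with a median of 2 UMIs a cell in both libraries. Erbb4, the neuregulin receptor of migrating interneuron precursors, had 32 UMIs in the Dlx-positive cells against 1 in the granule-lineage cells of 60TM, and 22 against 1 in those of WT. Prokr2, a receptor needed for migration to the olfactory bulb in mice, had 19 against 0 and 18 against 2. The lower receptors were Cxcr4, Dcc, Epha4, Ephb1, Nrp1 and Nrp2. Nrp1, a semaphorin and VEGF receptor, had 0 UMIs in either library, at least 19.4-fold lower in 60TM and at least 12.6-fold lower in WT. Epha4 was 3.40-fold and 3.47-fold lower.

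Cytoskeletal genes of young neurons were shared. All 20 listed were measured, and 2 were at least 2-fold higher in both libraries, the beta-tubulin gene Tubb3 (2.19-fold and 2.10-fold) and the stathmin gene Stmn2 (3.34-fold and 2.93-fold). None was at least 2-fold lower in both. Several of the most different genes lay outside these lists. The adhesion gene Nrxn3 was 856-fold and 328-fold higher, with 7 UMIs in the median cell of each library. The imprinted noncoding RNAs Meg3 and Rian were 63.2-fold and 56.0-fold, and 32.5-fold and 37.7-fold higher. Meg3 was among the 14 genes used to set mature-gene cells aside. Lower genes outside the lists included Pcp4, which had 2 and 6 UMIs in the Dlx-positive cells against 1453 and 1601, Sema3c with 1 and 4 against 813 and 1099, and Enc1 with 0 and 2 against 574 and 820.

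Because depth differed between cells, shares of cells with a UMI were also taken after thinning each cell to 2000 UMIs. Median depths were 6996 and 5917 UMIs in immature Dlx-positive cells of 60TM and WT, 8163.5 and 8366 in granule-lineage cells, and 6949.5 and 5765 in microglia, which should lack these genes. Thinned, Meis2 was detected in 90.6% and 90.2% of Dlx-positive cells (unthinned 98.1% and 100%), in 2.11% and 2.51% of granule-lineage cells and in 0.790% and 0.536% of microglia. Gad2 was detected in 49.1% and 56.1% thinned and in 88.7% and 82.9% unthinned, against 0.263% and 0.247% of microglia thinned. Sp8 was detected in 52.8% and 53.7% thinned, unthinned 88.7% and 82.9%, and in at most 0.0658% of microglia. Prox1 was detected in 22.6% and 24.4% of Dlx-positive cells thinned, unthinned 50.9% and 41.5%, between the 76.3% and 71.5% of granule-lineage cells and the 4.80% and 4.25% of microglia. Calb2 was detected in 0 of 53 and 0 of 41 cells, and by the floor of 3 counts this allows up to 5.66% and 7.32% of cells with a Calb2 UMI, while 58.9% and 65.3% of granule-lineage cells had it. Thinning left out 0 Dlx-positive cells, 6 and 8 granule-lineage cells and 183 and 93 microglia.

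Within the immature cells, Pax6 and Prox1 did not divide the cells cleanly. Both had a UMI in 19 of 53 cells (60TM) and 14 of 41 (WT), Pax6 alone in 15 and 20, Prox1 alone in 8 and 3, and neither in 11 and 4. Thinned, Pax6 was detected in 32.1% of 60TM cells (19.9 to 46.3) and 53.7% of WT cells (37.4 to 69.3), and unthinned in 64.2% and 82.9%. Over all UMIs the 60TM cells held 0.808 of the WT level of Pax6 in CPM.

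Ccnd2, which encodes cyclin D2, varied widely, with 0 to 108 UMIs a cell in 60TM and 0 to 76 in WT. The cells with at least 20 Ccnd2 UMIs, 13 of 53 and 8 of 41, were compared with the other 40 and 33. That limit was chosen after the values were seen, 7 and 3 cells lay within 5 UMIs of it, and the comparison has no test. The Ccnd2-high cells were deeper, with median totals of 9644 against 6042.5 UMIs in 60TM and 8705.5 against 5356 UMIs in WT, so ratios were taken between CPM values. Hmgb2, a chromatin protein gene of cycling and recently cycling cells, was 5.10-fold higher (3.21 to 8.34) in the Ccnd2-high cells of 60TM and 2.60-fold (1.34 to 5.07) in those of WT. Without the cell that held the most Hmgb2 UMIs, the WT ratio was 2.002 (0.909 to 4.27), an interval that spans no difference. Sox9, a factor of neural progenitors, was 3.27-fold higher (2.04 to 5.31) in 60TM. In WT its ratio of 3.25 rested on 1 cell, which held 31 of the 42 Sox9 UMIs of the Ccnd2-high cells, and without it the ratio was 1.0001 (0.451 to 2.06). The intermediate filament gene Vim was 3.39-fold (2.34 to 4.96) and 4.48-fold (2.003 to 10.7) higher, with a UMI in 13 of 13 and 7 of 8 Ccnd2-high cells. Prox1 was 2.26-fold (1.33 to 3.89) and 3.62-fold (1.73 to 7.87) higher. In WT 1 cell held 9 of the 21 Prox1 UMIs of the Ccnd2-high cells, and without it the ratio was 2.70 (1.13 to 6.42). Pcna, the replication clamp, was 3.84-fold higher (1.90 to 8.14) in 60TM, and 2.54-fold (1.13 to 5.81) without the cell with the most Pcna UMIs. In WT its ratio of 1.83 (0.672 to 4.87) spanned no difference, and without such a cell it was 0.798. Not every progenitor or cell cycle gene was higher. The progenitor gene Sox2 had ratios of 0.831 (0.579 to 1.18) in 60TM and 0.521 (0.316 to 0.826) in WT. The cell cycle gene Mcm7 had ratios of 1.03 (0.499 to 2.06) and 0.727 (0.345 to 1.43).

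Genes of later identity were lower in the Ccnd2-high cells. Meg3 was at 251 CPM in the Ccnd2-high cells of 60TM against 2325 in the others, and at 182 against 2421 in WT. Robo2 had ratios of 0.222 (0.118 to 0.388) and 0.160 (0.0571 to 0.363). Without the Ccnd2-high cell with the most UMIs of the gene, the ratio for Robo2 in 60TM was 0.103 and that for Meg3 in WT 0.0449. Meis2 had ratios of 0.527 and 0.534, and Sp8 of 0.558 and 0.370. Gad2 had ratios of 0.672 (0.463 to 0.958) and 0.630 (0.387 to 0.991). With a limit of 20 Ccnd2 UMIs for each 10000 in place of 20 UMIs, which made 17 and 13 cells Ccnd2-high, the ratio for Gad2 in WT was 1.11, so its direction there rested on the limit. The same limit gave ratios of 11.2 for Vim in 60TM, 6.21 for Sox9 in WT, and 0.183 and 0.1405 for Meg3. For Prox1 it gave 1.42 in 60TM and 4.23 in WT. Dlx1 and Dlx2 were closer to even, with ratios for Dlx1 of 1.35 (1.06 to 1.71) and 1.13 (0.777 to 1.63) and for Dlx2 of 1.29 (0.930 to 1.77) and 1.09 (0.725 to 1.62).

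**Figure D3:**
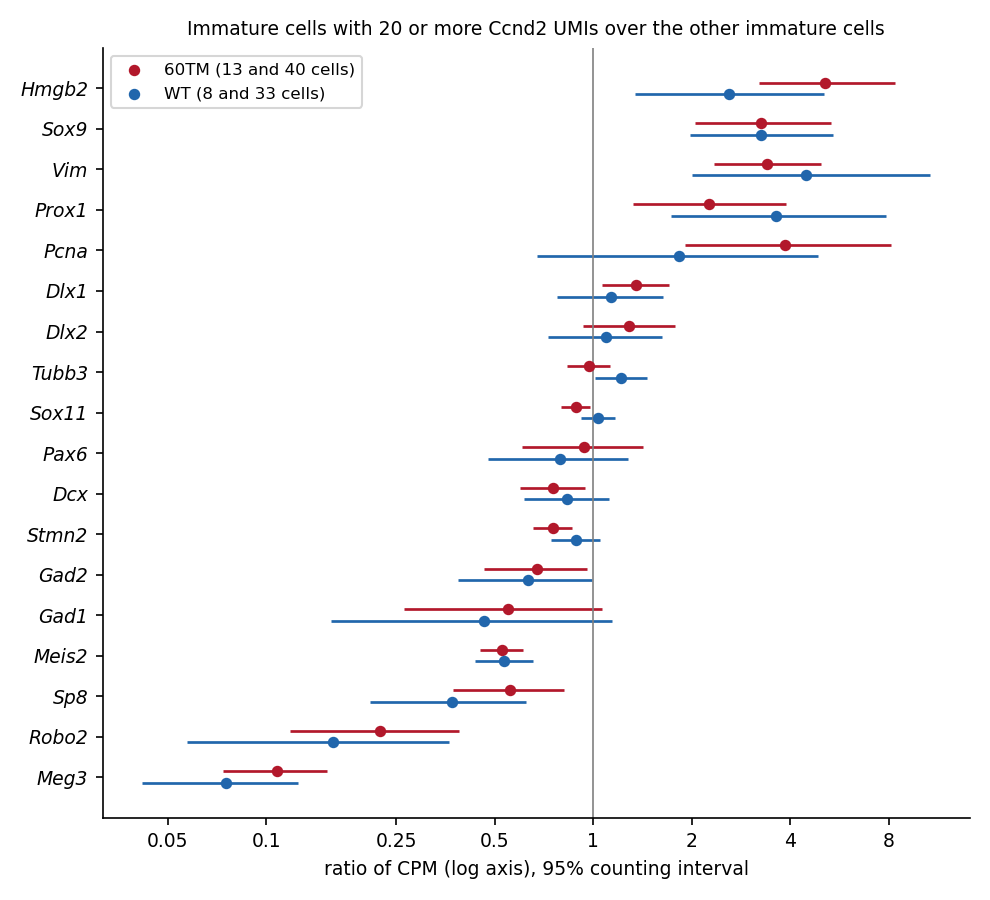
Ratio of CPM, on a log axis, between immature cells with at least 20 Ccnd2 UMIs and the other immature cells, for the 60TM and WT libraries, with exact 95% intervals for counting error. Hmgb2, Vim and Prox1 lay above 1 in both libraries, as did Sox9, whose WT value rests on 1 cell, and Meg3, Robo2, Meis2 and Sp8 below 1.

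The comparison of 60TM with WT depended on which of the chosen cells were summed. Over all 67 and 50 chosen cells, 4792 genes reached 50 UMIs. Of these, 163 had a ratio of 2 or more in 60TM (3.4%), and 349 were 2-fold or more below WT (7.28%). Over the 53 and 41 immature cells the counts were 20 of 2229 higher (0.897%) and 10 lower (0.449%), with a median log2 ratio over all tested genes of 0.01. Without the mature-gene cells alone they were 32 and 14 of 2584. Of the genes called over all chosen cells, 8 of the 163 higher ones (4.91%) were among the 20 called in immature cells (40% of those), and 0 of the 349 lower ones were among the 10. Of these 163 and 349 genes, 44 and 31 had enough UMIs to be counted in the immature cells.

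Over all chosen cells the lowest genes in 60TM included those of mature interneurons. Sst, the neuropeptide somatostatin, had 1 UMI in 60TM against 1768 in WT, and 1765 of the WT UMIs came from 1 cell. Crhbp, which binds corticotropin-releasing hormone, had 1 against 88, and all 88 came from 1 WT cell. Hapln1, which encodes a link protein of the matrix around neurons, had 68 against 304 UMIs, all of them in mature-gene cells in both libraries. Gad1 and Gad2 had ratios of 0.388 (0.338 to 0.445) and 0.378 (0.339 to 0.420) over all chosen cells, against 1.07 and 1.01 in the immature cells. Of the 5 listed GABA genes, 5 were at least 1.5-fold lower over all chosen cells, beside 1498 of 8236 genes of any kind (18.2%), and 0 of 5 in the immature cells, beside 456 of 4775 (9.55%).

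The highest genes over all chosen cells in 60TM included those of glia and immune cells. The chemokine gene Ccl3 had 52 UMIs against 0, at least 14.9-fold higher, with 50% of them in mature-gene cells and 50% in marker-set cells. Ccl12 had 68 UMIs in 60TM against 1 in WT, and 67 of the 60TM UMIs came from 1 marker-set cell. Apoe, the lipid carrier of astrocytes and microglia, had 550 against 60 UMIs, a ratio of 7.86 (6.02 to 10.4), and 8.18% of the 60TM UMIs lay in immature cells, where the ratio was 0.919. Enpp6 and Bcas1, genes of new oligodendrocytes, had 94.2% and 85.4% of their 60TM UMIs in mature-gene cells. S100b had 66 of its 68 in 1 cell, and its ratio without the deepest cell of each library was 1.61. Summed microglia markers were at 1457 CPM in 60TM against 482 CPM in WT over all chosen cells, and at 101 against 33.7 CPM over the immature cells. Of these 8 markers, 1 had 0 UMIs in the immature cells of 60TM (Tmem119) and 4 had 0 in those of WT (C1qc, Cx3cr1, P2ry12 and Csf1r), and their sum reached at most 6.39 and 4.03 UMIs per 10000 in a cell. Their part in the ratios of glial and immune genes was not tested.

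In the immature cells, named genes at least 2-fold higher in 60TM included Ttr, Hnrnpa0, Mt1, Vim, Plekho1, Pou3f4 and Ina. Hnrnpa0, which encodes an RNA-binding protein, had a median of 6 UMIs in the 60TM cells (1 to 19, in 53 of 53 cells) and 2 in the WT cells (0 to 6, in 35 of 41 cells). The ranges overlapped, and the ratio of CPM was 3.14 (2.44 to 4.09). It was also higher in the other cells of the 60TM library, at 2.52-fold in granule-lineage cells and 2.22-fold in microglia. Ttr, the transthyretin gene of the choroid plexus, had a median of 2 UMIs (0 to 6) in 60TM cells and 0 (0 to 1) in WT cells, a ratio of 8.47 (4.45 to 18.1). It was 13.7-fold higher in granule-lineage cells and 15.2-fold in microglia of the same library. The other 4 choroid plexus markers had 3 UMIs in the 60TM cells and 0 in the WT cells. Mt1, a metallothionein, had a ratio of 4.86 (2.30 to 11.8), with 0 to 7 UMIs in 60TM cells and 0 to 1 in WT cells, and was 1.78-fold and 1.95-fold higher in granule-lineage cells and microglia. All of these 3 genes were thus higher in the 60TM library in each kind of cell compared. From the microglia markers, RNA free in the suspension was estimated to give 0.850% and 0.304% of the UMIs of the immature cells in 60TM and WT. With that share subtracted at the library's mean composition, the ratios were 6.93 for Ttr, 3.15 for Hnrnpa0 and 4.35 for Mt1. That composition was of the barcodes kept and not of empty droplets, and the immature cells had been limited on the same microglia markers. Whether the subtraction took out all free RNA of these genes was not tested.

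Other genes were less alike across cell types. Vim had a UMI in 23 of 53 and 16 of 41 immature cells, with highs of 18 and 8, and a ratio of 3.01 (2.01 to 4.64). In granule-lineage cells its ratio was 0.7502 (0.565 to 0.990), and in microglia 1.74 (1.62 to 1.88). The difference between cell types was not tested, since it rests on 1 library each. Split at 20 Ccnd2 UMIs, Vim was higher in 60TM in both groups of immature cells. The Ccnd2-high cells had 631 CPM in 60TM against 243 in WT (83 and 20 UMIs). The others had 186 against 54.2 CPM (47 and 10 UMIs). These levels depend on that limit. At 20 Ccnd2 UMIs for each 10000, the Vim ratio between the groups was 11.2 in 60TM and 6.10 in WT, in place of 3.39 and 4.48. Ina, the neuronal intermediate filament internexin, had a median of 1 (0 to 5) against 0 (0 to 3) UMIs and a ratio of 2.40 (1.44 to 4.16), beside 0.932 in granule-lineage cells and 0.754 in microglia. Pou3f4, a POU factor of the ventral forebrain, had a median of 2 (0 to 14) against 1 (0 to 8) UMIs and a ratio of 2.04 (1.46 to 2.89), beside 1.19 (0.758 to 1.87) in granule-lineage cells. Plekho1 had a ratio of 3.99 (1.87 to 9.80) from 46 and 8 UMIs. The ranges of the cells overlapped between the libraries for each of these genes.

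**Figure D4:**
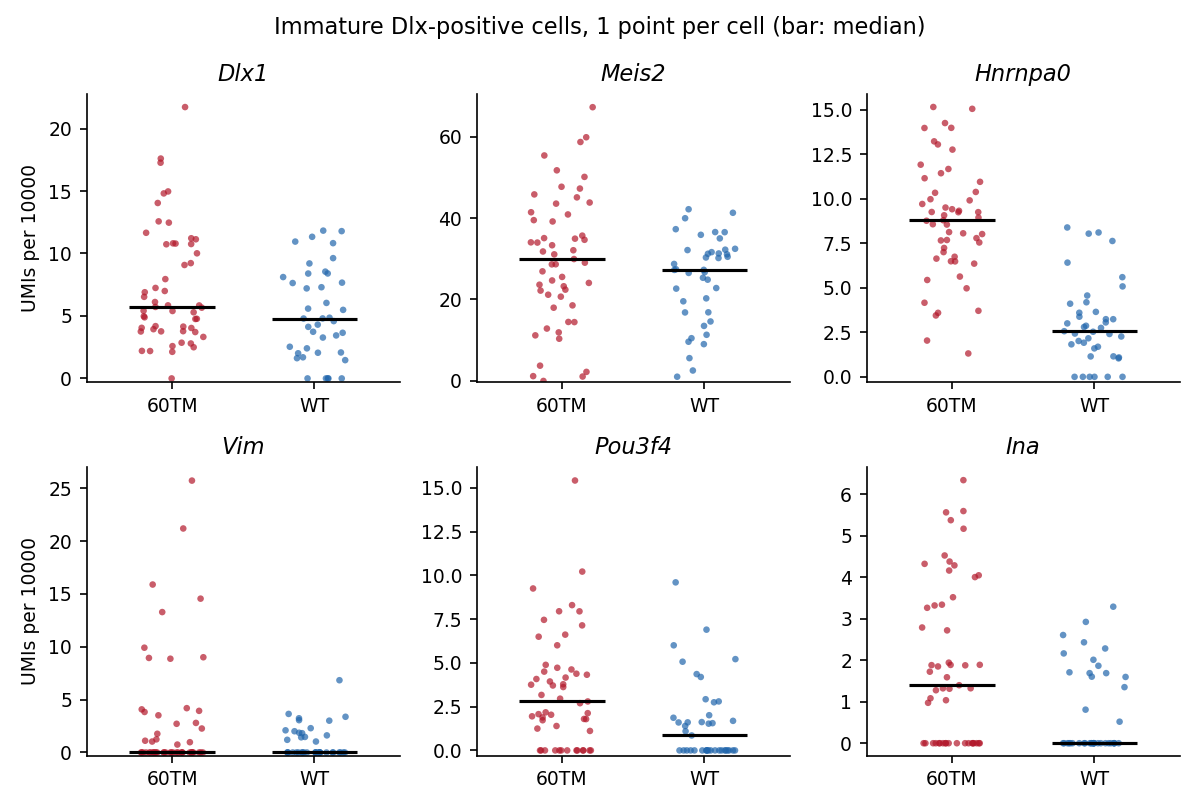
UMIs per 10000 (y axis) in each immature Dlx-positive cell, 1 point for a cell, of the 60TM library (left) and the WT library (right) for Dlx1, Meis2, Hnrnpa0, Vim, Pou3f4 and Ina, with the median as a bar. Hnrnpa0 had medians of 8.80 and 2.56 per 10000 and Meis2 of 29.9 and 27.3, and the points of the libraries overlap in each panel.

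Some named genes were lower in 60TM. Slc1a2, the astrocytic glutamate transporter, had 23 UMIs against 42, a ratio of 0.380 (0.218 to 0.647), but 25 of the 42 came from 1 WT cell, and without the deepest cell of each library the ratio was 0.753. D10Wsu102e had a ratio of 0.491, which was 0.850 without those cells. Nop58, a nucleolar protein gene, had 29 against 46 UMIs and a ratio of 0.438 (0.265 to 0.712). Ash1l, a histone methyltransferase gene, had 39 against 59 and a ratio of 0.459 (0.298 to 0.700).

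The genes that define the cells were closer to even. Dlx1 had a ratio of 1.5003 (1.22 to 1.85), Dlx2 of 0.975, Dlx5 of 0.987 and Dlx6os1 of 1.14 in the immature cells. Of 9 ventral forebrain factors measured, 0 were at least 1.5-fold apart, with a median log2 ratio of −0.11. Over all 4775 genes with at least 20 UMIs, 580 were higher by 1.5-fold or more and 456 lower by as much, with a median of 0.02. Of 20 cytoskeletal genes 1 was higher and 0 lower (median 0.13), and of 10 migration receptors 0 were higher or lower (median −0.12).

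**Figure D5:**
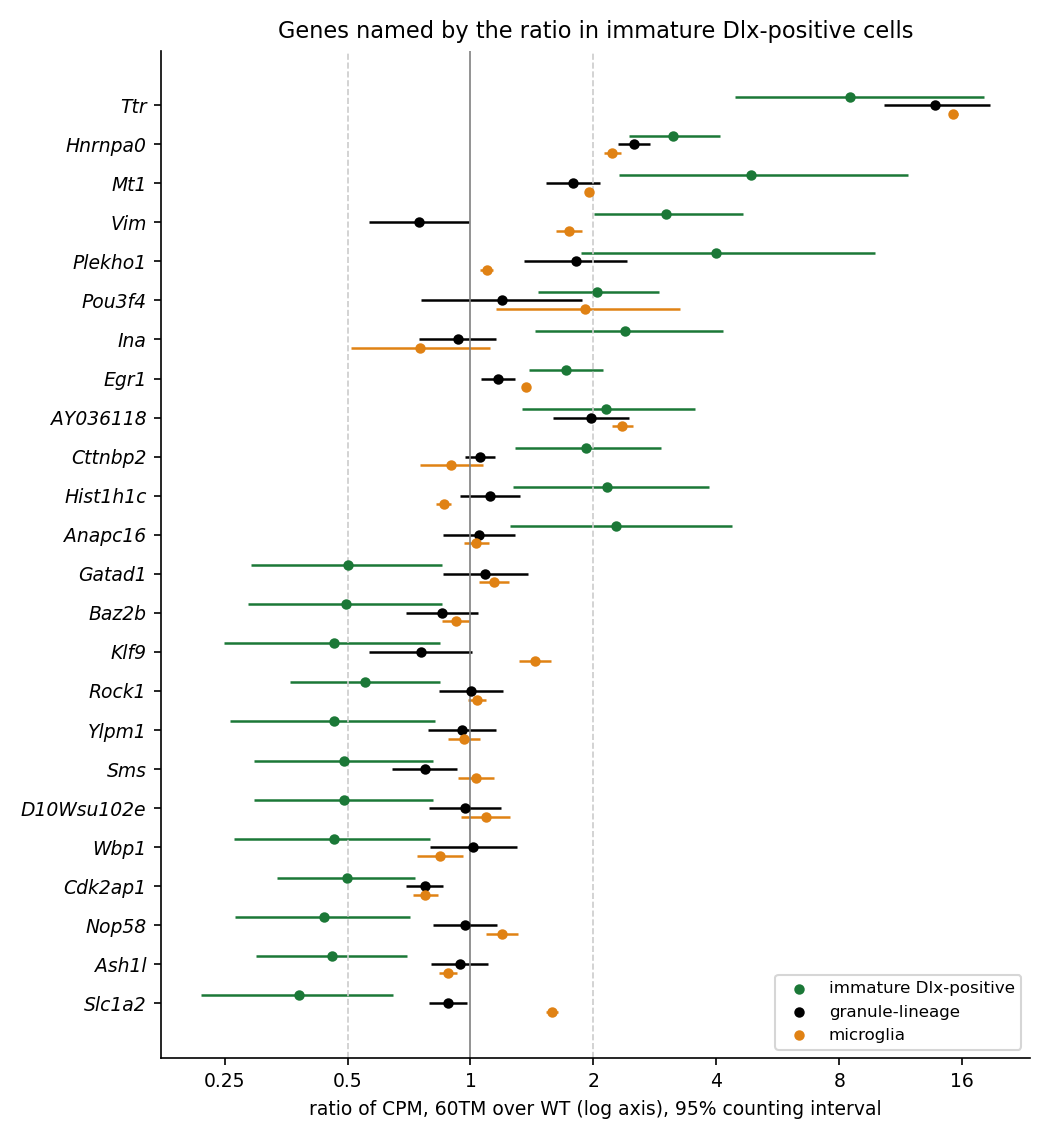
Ratio of CPM, 60TM over WT, on a log axis with exact 95% intervals for counting error, for the 12 highest and 12 lowest named genes in immature Dlx-positive cells, and for the same genes in granule-lineage cells and microglia. Ttr and Hnrnpa0 lay above 1 in all 3 kinds of cell, whereas Vim was at 3.01 in Dlx-positive cells and 0.7502 in granule-lineage cells.

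Lists of response genes had few measured members in the immature cells, and no list was tested. Their counts at 1.5-fold are to be set beside those over all genes of the immature cells given above. Shares above those of all genes rest on few members, as in the integrated stress response (2 of 4 lower) and cholesterol synthesis (3 of 9 lower). Of 8 immediate early genes measured, 2 were at least 1.5-fold higher and 1 lower. Egr1, an activity- and stress-induced zinc finger gene, had a median of 3 (0 to 47) UMIs in 60TM cells and 0 (0 to 17) in WT cells and a ratio of 1.71 (1.39 to 2.12), beside 1.17 in granule-lineage cells and 1.37 in microglia. Of 8 chaperone and heat shock genes 0 were apart, with a median log2 ratio of 0.06. Of 4 genes of the integrated stress response 0 were higher and 2 lower (median −0.41), and of 9 cholesterol synthesis genes 0 were higher and 3 lower (median −0.20). In granule-lineage cells 6 of 16 cholesterol genes were higher and 0 lower (median 0.42), beside 5.605% and 5.92% of all 10241 genes measured there. The difference between the kinds of cell was not tested. Of 6 apoptosis and p53 genes 1 was higher and 1 lower. Of 16 interferon response genes 1 had enough UMIs, Ifi27, with 32 UMIs in 60TM against 8 in WT and a ratio of 2.78 (1.25 to 6.98). Gfap had 4 and 0 UMIs in the immature cells. The counts are of mouse genes, and the RNA of the human transgene was not measured separately.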

How the data were processed

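Each library was deposited as raw UMI counts of 32285 genes per barcode, per the file headers 1 matrix of whole numbers for each sample. The submitters' processing notes name Cell Ranger 5.0.0 and GRCm38, and the labels give 54044 (60TM) and 63967 (WT) reads per cell. The authors' deposited counts were used as they stand, and no cell annotation was used.

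The cells and gene lists were chosen with earlier results of these data known. The immature set (fewer than 9 of 14 mature genes and under 60% of each of 8 glial, vascular or other marker lists), the Ccnd2 limit and the alternatives that rest on them were chosen after the values were seen. Doublets were scored with Scrublet in scanpy 1.11.5, and the highest scores were marked up to an expected rate of 0.8% for every 1000 barcodes. That rate fixed the number marked at 610 barcodes (6.98%) in 60TM and 377 (5.49%) in WT. The automatic threshold of Scrublet called 315 and 228. Marked cells were kept in the results given. Counts were summed over the cells of a library, divided by their total and set against each other as ratios of CPM, with exact conditional binomial intervals, and shares have Clopper-Pearson intervals. A gene was called at a 2-fold ratio when both sums held at least 50 UMIs together. Gene lists (34 in all) used members with at least 20 UMIs, log2 ratios of CPM + 5 and 1.5-fold limits. The genes named are the 12 highest and 12 lowest between 60TM and WT and the 15 highest and 10 lowest against granule-lineage cells, ranked by the interval bound nearest to 1, without mitochondrial, ribosomal, haemoglobin and sex-linked genes and unnamed models. They also include members of the lists and the genes of the rule. Genes whose UMI origin or spread by cell is given were drawn from these. Microglia were barcodes with at least 3 of 6 markers. The ratio and its interval were tested on simulated sums without extra spread between cells. The choice of cells, thinning and gene lists were not tested in that way. With 1 library of each genotype no p-value was computed. Alternatives were another scaling, count minimums of 20 and 100 UMIs, the mean over cells, thinning, doublet removal, other quality limits, at least 3 Dlx genes, subtraction of free RNA and leaving out the deepest or single cells.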

Additional observations from a re-analysis of the deposited data

How the results depend on the processing

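The counts of genes apart moved with the minimum of UMIs, with thinning and with the cells summed. For 60TM over WT over all chosen cells (163 higher, 349 lower), a minimum of 20 UMIs gave 535 and 664, 100 UMIs gave 52 and 173, and thinning to 2000 UMIs gave 12 and 9. A mean over cells gave 151 lower genes. Leaving out the mature-gene cells gave 32 and 14, and the immature cells 20 and 10. For the immature cells (20 and 10), a minimum of 20 UMIs gave 180 and 96, 100 UMIs gave 4 and 1, thinning gave 5 and 0, and at least 3 Dlx genes gave 6 lower genes. Against granule-lineage cells, over all chosen cells (317 and 722), thinning gave 102 and 311, and minimums of 20 and 100 UMIs gave 1231 and 480 lower genes. For the immature cells (188 and 809), thinning gave 86 and 296, a minimum of 20 UMIs gave 293 and 1291, and one of 100 UMIs gave 499 lower genes. A higher minimum and thinning leave fewer genes to test; the cause of the other shifts was not tested. Thinning before the rule chose 32 cells in WT in place of 50. List medians for 60TM over WT in immature cells moved as follows: the GABA list to −0.17 and the migration list to −0.57 thinned, the chaperone list to 0.39 thinned, and, over all chosen cells, the GABA list to −1.35, the ventral factors to 0.22 and the cholesterol list to 0.0153.

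Single genes turned direction in a few settings. Over all chosen cells, Bcas1 (ratio 0.694) and Apoe (0.919) turned in the immature cells, Camk2n1 (4.56) without the mature-gene cells and Rpp25 (1.49) after thinning. In the immature cells D10Wsu102e was 1.04 with at least 3 Dlx genes, and Gad2 in Ccnd2-high WT cells was 1.11 with the limit per 10000. Of the values of named genes and cell counts computed in other settings, those over all chosen cells stayed within their interval in 227 cases, left it in 84 and turned direction in 4. In the immature cells these were 277, 10 and 1, and in the Ccnd2 comparison 28, 7 and 1. No paired analysis was possible because each genotype had 1 library. At 384503 and 267006 UMIs over the immature cells, a gene with few UMIs has a wide interval (Plekho1, 46 and 8 UMIs, 1.87 to 9.80), and pooling hides the spread between mice.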

Other observations

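Some genes of receptors, progenitors and the cell cycle outside the rule also differed between the immature Dlx-positive cells and granule-lineage cells, where 2.22% of all genes tested were at least 2-fold higher in both libraries and 9.56% lower. Of 10 measured genes for GABA and glutamate receptors and chloride carriers, Gria4, an AMPA receptor subunit, was at least 2-fold higher in both libraries, and Gabra2, Gria1, Grin1 and Slc12a2 were at least 2-fold lower. Gabra2, a GABA-A receptor subunit, had 2 UMIs in the Dlx-positive cells against 161 in the granule-lineage cells of 60TM, and 2 against 234 in those of WT. Among 6 progenitor genes, the transcription factor genes Sox2 (2.82-fold and 3.94-fold) and Sox9 (4.22-fold and 6.66-fold) were higher. The lipid-binding protein gene Fabp7 was lower, with 7 UMIs in the Dlx-positive cells of each library against 131 (60TM) and 119 (WT). Of 11 cell cycle genes outside the rule, Ccnd2 was at least 2-fold higher in both libraries, at 4.13-fold and 5.88-fold, and 0 were at least 2-fold lower in both.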
